A study of Mus musculus with 7 samples.

Results

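The mitochondrial ribosomal protein genes are the nuclear genes whose products, with the 12S and 16S ribosomal RNAs, build the ribosome of mitochondria. Members were taken by symbol alone, as Mrpl or Mrps followed by a number and at most 1 letter, which gave 77 of the 31531 genes measured. RNA came from fibers of the epaxial muscles, the muscles along the back, of fetuses at embryonic day 17.5: 4 WT libraries and 3 dyW libraries, each from a different fetus. The dyW fetuses were homozygous for dyW (dyW/dyW), an allele that disrupts Lama2, the gene of the laminin α2 chain, in every cell, and they model the congenital muscular dystrophy LAMA2-CMD. The labels name no treatment for either group. Of the 77 members, 50 encode proteins of the large subunit and 26 proteins of the small subunit. Mrps36 was not assigned to a subunit, since its product is now regarded as a component of the 2-oxoglutarate dehydrogenase complex. The symbols Mrps18a and Mrps30 carry an S, but both proteins sit in the large subunit and were counted there.

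Mitochondria make a small set of respiratory chain proteins on their own ribosomes, and every other protein they hold is imported. The small subunit decodes the mRNA, and the large subunit joins the amino acids. The RNA parts are transcribed from mitochondrial DNA, whereas all protein parts come from nuclear genes, so the RNA and the protein parts of one particle are made by separate transcription systems. Some of the proteins have a homolog in the bacterial ribosome, and others are specific to mitochondria. Fetal muscle builds up its mitochondria as fibers mature.

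Values are normalized counts, the reads of a gene divided by 1 size factor per library, and 77 members were measured in 7 libraries of very unequal depth. The reads on genes, recovered from the value of 1 read, ran from 470804 to 2220813 in the WT libraries and from 3663905 to 18297106 in the dyW libraries. The members held 601 to 3517 of these reads in the WT libraries, with a median of 67 reads a member over all 4 WT libraries together, and 10653 to 122951 in the dyW libraries. A count of 0 in a library allows up to 3 reads, which are 6.15 to 16.0 normalized counts in the WT libraries but 0.292 to 1.47 in the dyW libraries. These limits cover counting error only, because the cDNA was amplified by PCR without molecular identifiers. Lama2 was at 90.6, 111, 105 and 107 normalized counts in WT1 to WT4 and at 4.29 and 6.07 in dyW1 and dyW2, but at 140 in the library labelled dyW3, above every WT library. Values without the library labelled dyW3 are therefore given beside the results that it moved most. Myofiber markers, 11 genes of the contractile apparatus, summed to 2682 to 70708 normalized counts in the WT libraries. Their sum was 8407 in dyW2 and 4870 in the library labelled dyW3, but 74.2 in dyW1, where Ckm, Myh3, Myh8 and Actn2 were at 0. Markers of other tissues also varied: 4 cartilage genes made up 17.3% of the counts of WT1, and 5 erythroid genes summed to 16.0 to 253237 normalized counts in WT and 14.2 to 154156 in dyW, while 5 fibroblast genes summed to 3380 to 9904 in WT and 9797 to 22162 in dyW.

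Most members had a read in both groups, but in the WT libraries a read is weak evidence of expression. A read was found for 70, 77, 77 and 76 of the 77 members in WT1 to WT4, and for 76, 77 and 73 in dyW1 to the library labelled dyW3. The mean number detected was 75 ± 3.37 (SD, n = 4) in the WT libraries. In the dyW libraries it was 75.3 ± 2.08 (SD, n = 3). With all libraries drawn down to 470804 reads, the mean was 72 members in each group. At a bar of 10 normalized counts the mean was 70.5 members in WT and 65 in dyW. In 66 of the 77 members a read was found in all 7 libraries. Of all 31531 genes, 25530, 29594, 28602 and 29091 had a read in WT1 to WT4. In dyW1 to the library labelled dyW3 the numbers were 17790, 14209 and 19360. Olfactory-type receptor genes stood at 0.706, 2.63, 1.85 and 1.97 reads per kb in WT1 to WT4 and at 0, 0 and 1.14 in dyW. Above 2 times that level lay 51, 54, 74 and 48 members in WT and 76, 77 and 71 in dyW. Similar numbers detected thus do not show equal presence.

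**Figure D1:**
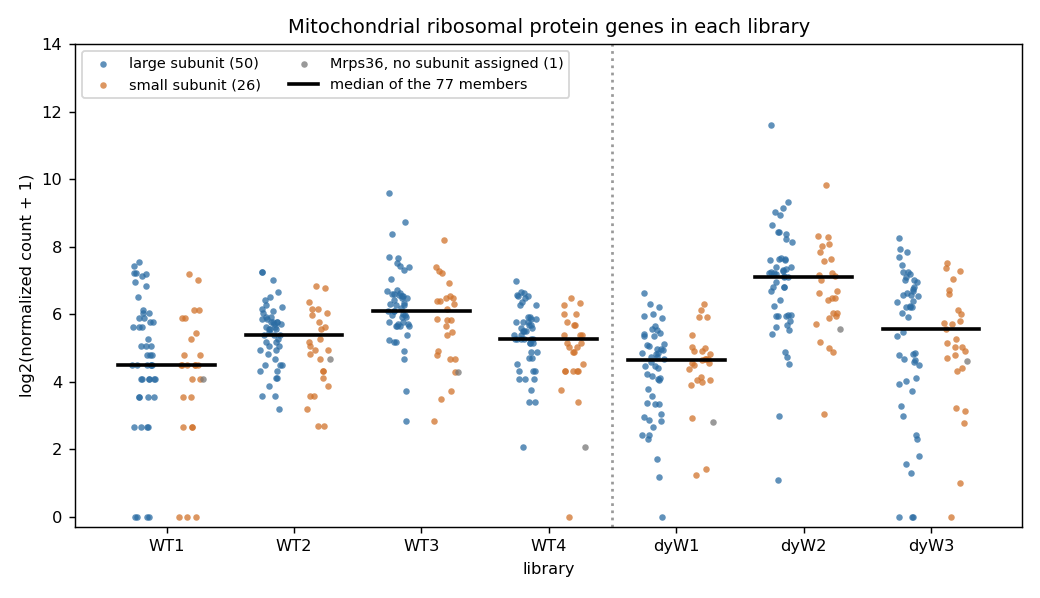
The plot shows log2(normalized count + 1) of each of the 77 members (points) in each of the 7 libraries, with large subunit members on the left and small subunit members on the right of each column and the median of the 77 as a bar. The members lie highest in dyW2 and, among the WT libraries, in WT3, and lowest in WT1 and dyW1.

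The members' levels differed widely between libraries of the same group. The median member stood at 21.3, 40.5, 67.7 and 37.8 normalized counts in WT1 to WT4. In the dyW libraries it stood at 23.8 in dyW1, 135 in dyW2 and 45.9 in the library labelled dyW3, so dyW1 lay within the WT range, close to its lower end, and dyW2 far above it. Among the dyW libraries, dyW2 held the highest value for 60 of the 77 members and dyW1 the lowest for 52. The members were 6.02 times as high in dyW2 as in dyW1 by the median of 76 members (1 member was at 0 in dyW1). The 5732 genes with a mean of 50 to 1000 normalized counts and a read in dyW1 had a median ratio of 0.943. That range of means held 48 of the 77 members. Among the WT libraries, WT3 held the highest value for 54 members. In bulk RNA of this kind, fewer cells of a type and less RNA per cell cannot be told apart.

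The members' levels spread more over the dyW libraries than over the WT libraries. The SD of log2(normalized count + 1) over the dyW libraries had a median of 1.65 over the 76 members tested, against 0.84 over the WT libraries, and it was the larger of both for 61 members. All genes tested had medians of 1.40 over the dyW libraries and 0.84 over the WT libraries. Genes with a mean of 50 to 1000 normalized counts, a range that held 48 of the members, had medians of 1.24 and 0.65. The summed levels of the myofiber and of the fibroblast markers were both lowest in WT1 and highest in WT3 among the WT libraries, and lowest in dyW1 and highest in dyW2 among the dyW libraries. The fibroblast sum was 9797, 22162 and 16244 normalized counts in dyW1 to the library labelled dyW3. The part of either in the level of the members was not tested.

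As a share of all normalized counts, which the size factor does not change, the members summed to 0.128%, 0.0886%, 0.158% and 0.0595% in WT1 to WT4. The share was 0.148% in dyW1, 0.672% in dyW2 and 0.291% in the library labelled dyW3. The WT mean was 0.109% ± 0.0434 (SD, n = 4) and the dyW mean 0.370% ± 0.271 (SD, n = 3), and the groups overlapped, since dyW1 lay below WT3. Without the library labelled dyW3 the dyW mean was 0.410%, and without dyW2 it was 0.219%. The 10 most abundant genes took 43.3% to 77.3% of the WT counts but 16.4% to 37.6% of the dyW counts. With those genes left out of the totals, the share was 0.225% to 0.391% in the WT libraries and 0.177%, 1.08% and 0.373% in the dyW libraries, so that dyW1 and the library labelled dyW3 then lay below WT3. Mrpl42 alone made up 19.8% of the members' sum in dyW2 and 10.5% in WT3.

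Members did not share 1 order of abundance. The Spearman correlation of the 77 members between libraries, a description over genes that are not independent, was 0.37 to 0.67 between WT libraries and 0.25 to 0.39 between dyW libraries. The highest value of all pairs, 0.73, was that between WT3 and dyW2, which carry different labels and were also the libraries with the highest members in each group. These points share a library on each axis and, in the WT libraries, few reads.

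Levels between members were compared as normalized counts per kb of the canonical transcript. Mrpl42, a mitochondria-specific protein of the large subunit, was the highest member in both groups, at 383 normalized counts per kb in WT and 1482 in dyW. Mrpl33, Mrpl20, Mrpl28 and Mrpl13, all large subunit proteins with a bacterial homolog, followed it at 148 to 189 normalized counts per kb over all libraries. The lowest were Mrps34, Mrps30, Mrps35, Mrps5 and Mrps31, at 4.52 to 8.70 normalized counts per kb over all libraries. Their canonical transcripts have 936, 3369, 4198, 4488 and 3043 bases, against a median of 1820 over the members. The order thus rests on the annotated length as well as on the counts. The order differed between the groups: Mrps2 was the lowest member in WT at 4.40 normalized counts per kb but rank 62 of 77 in dyW, Mrpl10 was rank 29 in WT and 76 in dyW, and Mrpl23 was rank 5 in WT and 36 in dyW. Mrps34 was the only member under the mean of 5 normalized counts required for a test: it stood at 0, 10.8, 10.3 and 0 in the WT libraries and at 1.36, 7.21 and 0 in the dyW libraries. Members next to each other at the top of this order overlapped in their values, since the normalized counts of Mrpl33, the second, ran from 59.3 to 201 in WT and from 5.26 to 493 in dyW.

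Mrpl42, the most abundant member, did not pass the test. Its normalized counts were 149, 151, 761 and 126 in WT1 to WT4 and 59.9, 3084 and 301 in dyW1 to the library labelled dyW3. The WT and dyW ranges overlapped, and dyW2 was the highest library and dyW1 the lowest. The log2 fold change, dyW minus WT, was 0.83 ± 1.24 (SE), with an adjusted p of 0.639 in limma, and without dyW2 it was -0.68. The gene lies at chr10:95316559-95346150 of GRCm39 on the minus strand and its canonical transcript has 6 exons.

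The comparison of dyW with WT asked whether loss of laminin α2 went with a change of these genes in fetal fibers. Groups were compared on log2(normalized count + 1) with limma, and p-values were adjusted over all 25791 genes with a mean of at least 5 normalized counts. A gene was called at an adjusted p under 0.01 with a log2 fold change beyond 1.5 in size. Of the 76 members tested, 0 were called lower and 0 called higher, whereas 18.7% of all genes tested were called lower and 0.0659% called higher. At an adjusted p under 0.05 without a fold limit, 1 member was lower, Mrpl10, and 0 were higher, beside 29.6% and 1.01% of all genes. At an unadjusted p under 0.05, limma gave 1 member lower and 3 higher, beside 41.5% and 2.81% of all genes. With voom on the recovered reads and library totals as the scale, 0 members were called lower and 1 called higher, Mrps6, beside 20.6% and 0.264% of all genes. With voom on the deposited scaling the counts were 0 and 0, beside 23.6% and 0.0194%.

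The members' log2 fold changes had a median of 0.36, with 53 of 76 above 0, beside a median of -1.99 over all genes tested. The quartiles were -0.41 and 0.85 and the range ran from -2.74 to 2.82, while the standard errors ran from 0.60 to 1.68. The all-gene median itself was 0.06 after quantile normalization, where the members had 0.87. The sign of the members' median turned with 1 library: without dyW2 it was -0.33, with 29 of 76 above 0, and without dyW1 it was 1.17. Without the library labelled dyW3 it was 0.45.

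**Figure D2:**
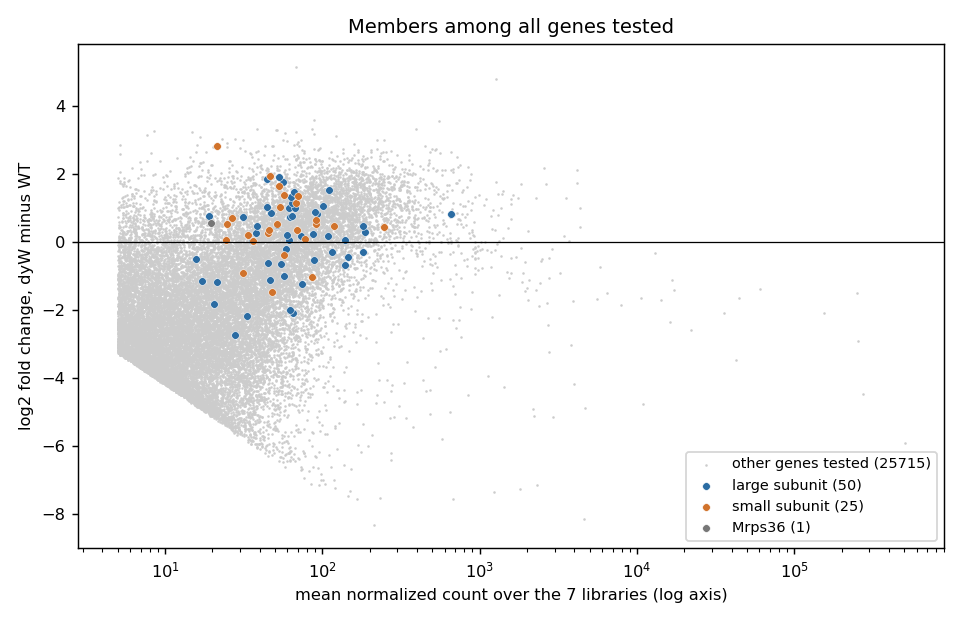
Each gene tested is plotted by its mean normalized count over the 7 libraries (log axis) and its log2 fold change, dyW minus WT, with the members coloured by subunit and all other genes in grey. The members lie between means of about 16 and 662 and between -2.74 and 2.82, whereas the grey genes with low means reach far lower.

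The median over all genes differed by level. Among the 19680 genes with a mean of 5 to 50 normalized counts, 37.2% were lower at an adjusted p under 0.05, and among the protein-coding genes of that range 32.5% were. Of the 28 members in that range 1 was lower, with a median log2 fold change of 0.22 against -2.58 for the range. Among the 6005 genes with a mean of 50 to 1000, 4.996% were lower and 4.05% higher, with a median of 0.21. Of the 48 members in that range 0 were lower and 0 higher, with a median of 0.46. No member had a mean of 1000 or more.

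Members of both subunits had medians above 0. The median log2 fold change was 0.22 over 50 large subunit members, of which 31 were above 0, and 0.46 over 25 small subunit members, of which 21 were above 0. By class, the median was 0.22 for the 30 large subunit proteins with a bacterial homolog and 0.22 for the 20 that are specific to mitochondria. It was 0.51 for the 16 small subunit proteins with a bacterial homolog, of which 15 were above 0, and 0.05 for the 9 tested that are specific to mitochondria. The difference between subunits was not tested, and without dyW2 the medians were -0.48 for the large and -0.28 for the small subunit.

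**Figure D3:**
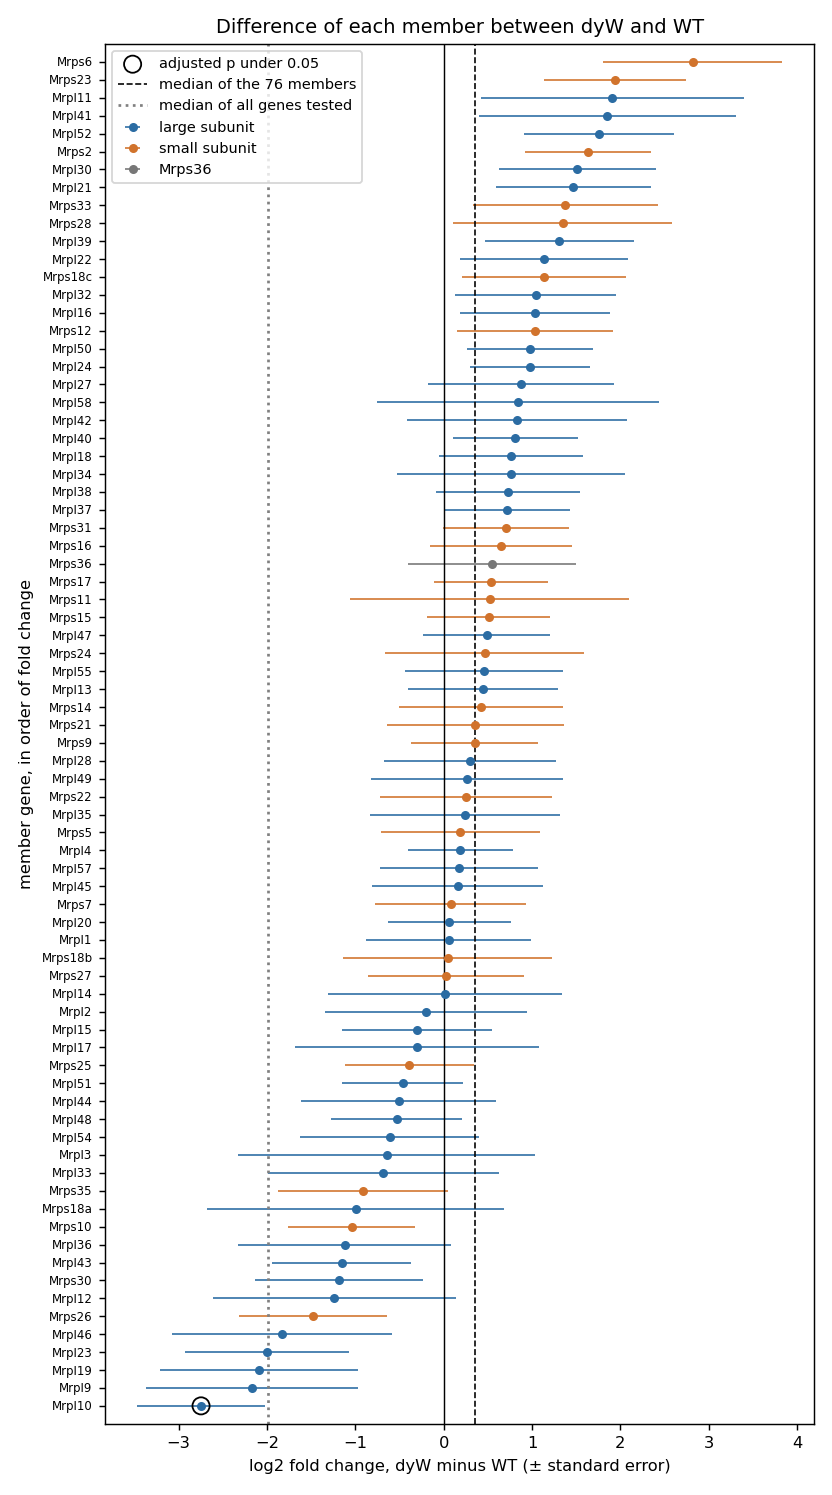
The log2 fold change of each of the 76 members tested, dyW minus WT, is drawn with its standard error in order of size, with the members' median at 0.36 (dashed) and the median of all genes tested at -1.99 (dotted). Mrpl10, circled, is the member with an adjusted p under 0.05, and most error bars cross 0.

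Mrpl10 encodes the large subunit protein of the ribosomal stalk base, where translation factors dock. It stood at 48.0, 32.4, 49.2 and 44.1 normalized counts in WT1 to WT4 and at 10.9, 6.96 and 1.95 in dyW1 to the library labelled dyW3. Every dyW library lay below every WT library, and the means were 43.4 ± 7.69 (SD, n = 4) and 6.61 ± 4.49 (SD, n = 3). The log2 fold change was -2.74 ± 0.72 (SE) with an adjusted p of 0.0182 in limma, so Mrpl10 fell at the 0.05 limit but not at 0.01. The WT values rest on 9, 12, 24 and 14 reads and the dyW values on 112, 55 and 4. Without the library labelled dyW3 the log2 fold change was -2.17 (adjusted p = 0.0184, limma). The pass at 0.05 was lost without WT1, WT2 or WT4, with adjusted p-values of 0.0541, 0.0548 and 0.0695 in limma. It was also lost under other scalings: the log2 fold change was -1.20 with quantile normalization (adjusted p = 0.545, limma), -1.71 with each library set to 1 common total (0.192) and -1.41 with voom on library totals (0.491). It was lost too where the fold stayed about as large, at -2.57 after subtracting the per-kb level of olfactory-type receptor genes (adjusted p = 0.167, limma) and -2.54 with voom on the deposited scaling (0.171). The gene lies at chr11:96932369-96940044 of GRCm39 on the plus strand. Of its canonical exon bases, 49.4% are also exon of Gm11574 on the opposite strand, and the strand setting of the counting is not given in the sources used here, so reads of both cannot be told apart.

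Mrpl9 was the other member with every dyW library below every WT library. Its normalized counts were 37.3, 48.5, 53.3 and 34.6 in the WT libraries and 30.1, 28.6 and 0 in the dyW libraries, and the log2 fold change of -2.17 ± 1.20 (SE) did not pass the test (adjusted p = 0.196, limma). It rested on the 0 in the library labelled dyW3, since without that library it was -0.53. Non-overlapping groups of this direction were found for 2 of the 76 members and for 31.5% of all genes tested.

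In the other direction, every dyW library lay above every WT library for 3 of the 76 members, Mrps6, Mrps23 and Mrpl52, beside 3.28% of all genes tested. Mrps6, a small subunit protein with a bacterial homolog, stood at 0, 8.09, 6.15 and 12.6 normalized counts in WT1 to WT4 and at 19.6, 51.3 and 51.8 in the dyW libraries. The WT values rest on 10 reads in all, and the 0 in WT1 allows up to 16.0 normalized counts. The log2 fold change was 2.82 ± 1.01 (SE), with an adjusted p of 0.0635 in limma, and 2.59 without the library labelled dyW3. Of the canonical exon bases of Mrps6, which lies at chr16:91854965-91909592 of GRCm39 on the plus strand, 52.4% are also exon of Slc5a3 or Gm49711 on the same strand.

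Mrps23 encodes a mitochondria-specific protein of the small subunit. It stood at 10.7, 10.8, 28.7 and 18.9 normalized counts in the WT libraries and at 40.2, 35.03 and 182 in the dyW libraries. The highest value was that of the library labelled dyW3, and the log2 fold change of 1.94 ± 0.80 (SE) (adjusted p = 0.0930, limma) was 1.19 without it. Mrpl52, a mitochondria-specific protein of the large subunit, stood at 5.33, 27.0, 49.2 and 44.1 in the WT libraries and at 76.98, 59.9 and 129 in the dyW libraries. Its value in WT1 rests on 1 read. The log2 fold change of Mrpl52 was 1.76 ± 0.85 (SE), with an adjusted p of 0.144 in limma, and 1.45 without the library labelled dyW3. With each library set to 1 common total, Mrps23 and Mrpl52 passed 0.05 at 3.05 and 2.89, with adjusted p-values of 0.0296 and 0.0280 in limma. For these 5 members the exact two-sided permutation test gave p = 0.0571, the smallest that the 35 ways to divide 7 libraries into 4 and 3 allow, so this design cannot reach 0.05 with that test.

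**Figure D4:**
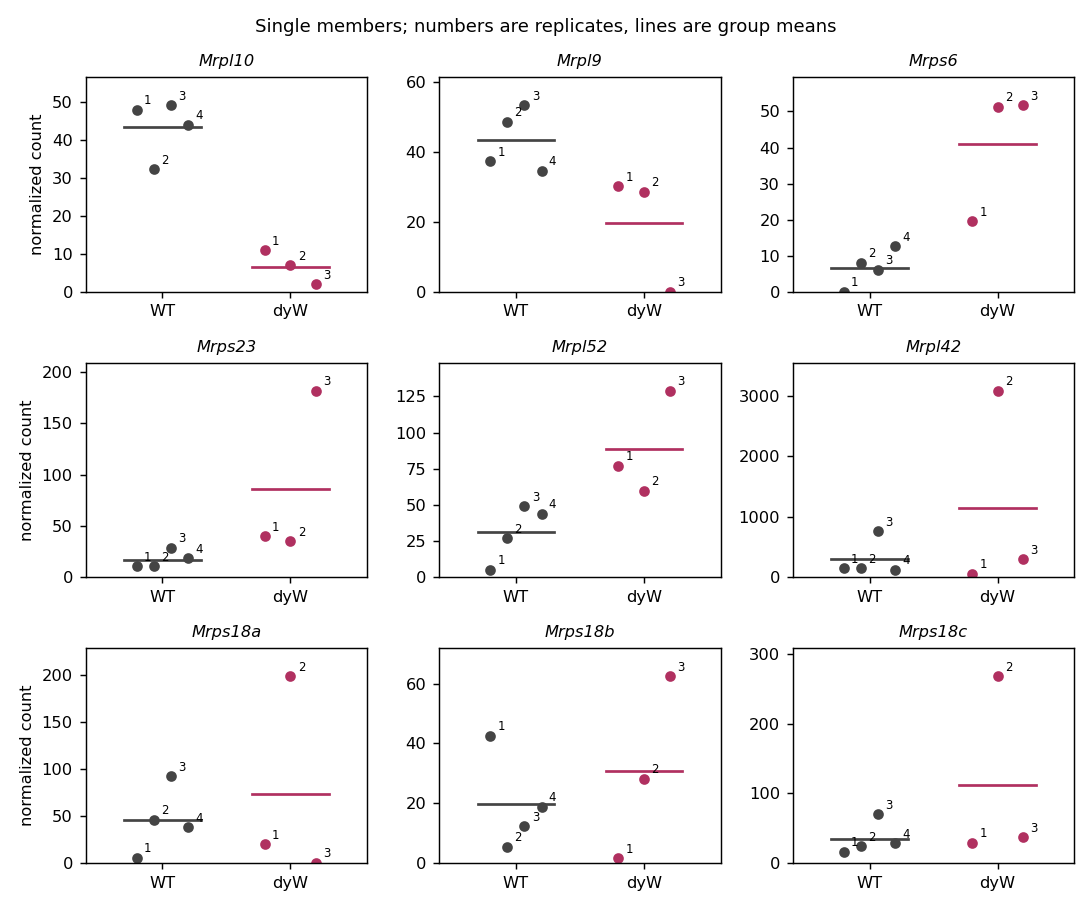
Normalized counts of 9 members are shown in the WT and dyW libraries, with points numbered by replicate and lines at the group means. The groups do not overlap for Mrpl10, Mrpl9, Mrps6, Mrps23 and Mrpl52, while the group mean of Mrpl42 in dyW is carried by dyW2.

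Other members at the ends of the order did not pass the test. Mrpl19, a large subunit protein with a bacterial homolog, stood at 58.6 to 100.7 normalized counts in WT, at 3.898 and 6.84 in dyW1 and the library labelled dyW3, and at 143 in dyW2, and its log2 fold change was -2.09. Mrpl23, which lines the exit of the peptide tunnel, was highest in WT1 at 187 and lowest in dyW1 at 4.38. Its log2 fold change was -1.99, and -1.09 without dyW1 and -2.69 without dyW2. Mrpl46 stood at 9.44 to 41.0 in WT, at 0 in dyW1, at 45.5 in dyW2 and at 3.91 in the library labelled dyW3, with a log2 fold change of -1.83. Without dyW2, Mrpl19 and Mrpl46 were lower at adjusted p-values of 0.0151 and 0.0413 in limma. Mrpl11, a protein of the site that binds translation factors, and Mrpl41 had log2 fold changes of 1.91 and 1.85, and both were at 0 in WT1; without that library they were 0.58 and 0.67. Mrps2, named here after its values were seen, had a log2 fold change of 1.64 ± 0.71 (SE) and an adjusted p of 0.108 in limma, and without dyW1 the adjusted p was 0.0314.

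The paralogs Mrps18a, Mrps18b and Mrps18c descend from 1 bacterial small subunit protein, and their products take different places: the first in the large subunit, the others in the small. By their place in the particle, the first and the second were counted above as specific to mitochondria. Mrps18a stood at 5.33, 45.8, 92.3 and 37.8 normalized counts in the WT libraries and at 20.0, 199 and 0 in the dyW libraries. Mrps18b stood at 42.6, 5.39, 12.3 and 18.9 in WT and at 1.66, 28.2 and 62.5 in dyW, and Mrps18c at 16.0, 24.3, 69.7 and 28.3 in WT and at 28.9, 268.5 and 37.1 in dyW. The groups overlapped for all 3, with log2 fold changes of -0.997, 0.05 and 1.14 and adjusted p-values of 0.679, 0.980 and 0.375 in limma. The log2 fold changes were 1.01, -0.90 and 1.55 without the library labelled dyW3, and -2.81, -0.34 and 0.14 without dyW2. In dyW2, Mrps18a and Mrps18c had their highest values, whereas Mrps18b was highest in the library labelled dyW3. Canonical exons of Mrps18c and Mrps18b share 70.4% and 49.5% of their bases with exons of other genes.

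Proteins of the same ribosome that carry other symbols did not pass the test either. Dap3, which binds GTP in the small subunit, stood at 62.0 to 96.0 normalized counts in WT and at 30.4, 87.6 and 55.7 in dyW. Ptcd3, a pentatricopeptide protein of the small subunit, stood at 29.7 to 117 in WT and at 106, 283 and 39.6 in dyW. Chchd1 reached 244 in WT3 and 390 in dyW2 and stayed between 26.0 and 67.9 in the other 5 libraries. Aurkaip1 reached 201 in dyW2, and Gadd45gip1, of the large subunit, 59.4. At an adjusted p under 0.05 in limma 0 of the 5 were lower and 0 higher, beside 29.6% and 1.01% of all genes, at an unadjusted p under 0.05 the counts were also 0 and 0, beside 41.5% and 2.81%, and their log2 fold changes ran from -0.53 to 0.94.

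The ribosomal RNAs of the particle were lower in dyW. The 12S RNA mt-Rnr1 and the 16S RNA mt-Rnr2 together made up 10.6%, 13.2%, 10.9% and 14.8% of the normalized counts in WT1 to WT4 and 1.21%, 4.09% and 0.511% in dyW1 to the library labelled dyW3. For mt-Rnr2 the groups did not overlap, the log2 fold change was -4.47 ± 0.69 (SE), and it was called lower (adjusted p = 0.00372, limma). For mt-Rnr1, which was at 16223 normalized counts in WT1 and 24907 in dyW2, the groups overlapped and the log2 fold change was -3.47 ± 0.93 (SE) with an adjusted p of 0.0200. Without the library labelled dyW3 the log2 fold change of mt-Rnr2 was -3.78, and that of mt-Rnr1 was -2.71 (adjusted p = 0.0577, limma). For mt-Rnr1 it was -3.08 without dyW1 and -2.32 with the common total, with adjusted p-values of 0.0663 and 0.0509 in limma. With the common total mt-Rnr2 was at -3.32 (adjusted p = 0.0150, limma). The median of both genes was -3.97 as reported and -2.02 with quantile normalization. Without dyW2 the log2 fold changes were -5.39 for mt-Rnr2 and -4.62 for mt-Rnr1, and mt-Rnr2 was not called without dyW1 or dyW2, with adjusted p-values of 0.0107 and 0.0141 in limma. Nuclear copies of mitochondrial DNA can share reads with both genes.

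**Figure D5:**
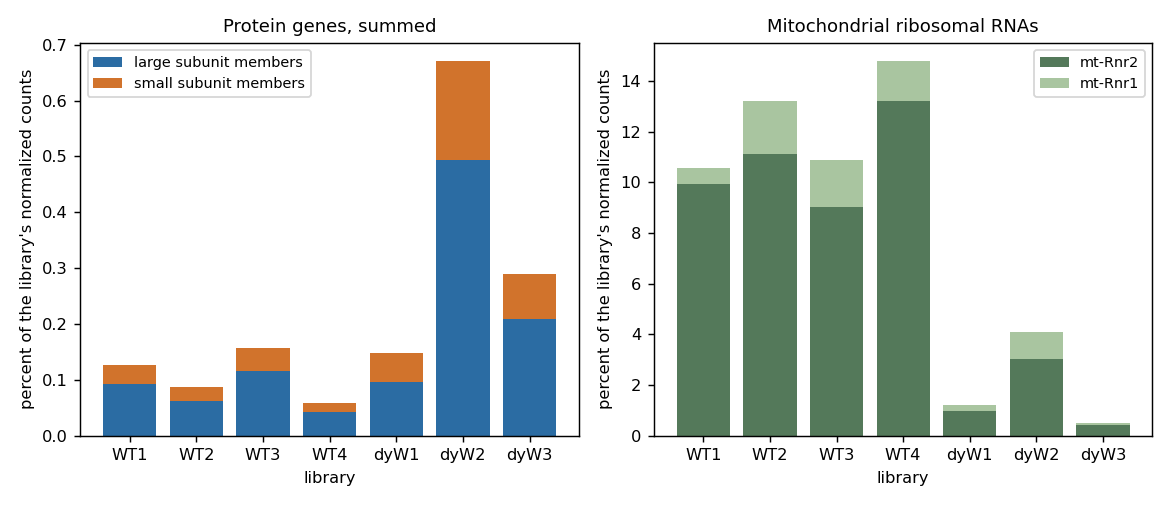
Bars give the percent of each library's normalized counts in the large and small subunit members (left) and in the ribosomal RNAs mt-Rnr1 and mt-Rnr2 (right). The protein genes reach 0.672% in dyW2 and stay at or below 0.158% in the WT libraries, while the RNAs stand at 10.6% or more in the WT libraries and at 4.09% or less in the dyW libraries.

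Genes that act around the particle were taken from 4 lists. Of 24 assembly and rRNA modification genes tested, 3 were called lower, a smaller share than the 18.7% of all genes, and 6 were lower at an adjusted p under 0.05, with 0 higher and a median log2 fold change of -1.23. Trub2 and Rpusd4, pseudouridine synthases, and Ybey, an rRNA endonuclease, were the 3 called lower, with log2 fold changes of -5.13, -4.09 and -4.30. Rpusd4 was named after its values were seen. Trub2 stood at 43.1 to 90.6 normalized counts in WT and at 0, 5.94 and 0 in dyW, and Ybey at 34.9 to 107 in WT and at 6.63, 5.44 and 0 in dyW. Without the library labelled dyW3, 4 of the list were called lower, beside 6698 of all 25971 genes tested, and Ybey had a log2 fold change of -3.37. Without dyW1 the count was 1, beside 2090 of 26945 genes, and this was Rcc1l at -4.64 (adjusted p = 0.00867, limma). Trub2, Rpusd4 and Ybey then missed the limit of 0.01, with adjusted p-values of 0.0109, 0.0109 and 0.0106 in limma. Without dyW2 the count was 0 here and over all genes. Malsu1 and Mterf3, at 1.148 and 0.60, were the most positive and did not pass the test.

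Of 12 translation factors tested, 1 was lower at an adjusted p under 0.05 and 0 higher, with a median of -1.24. This was the initiation factor gene Mtif3, at 22.0 to 27.0 normalized counts in WT and at 0.974, 5.31 and 0 in dyW, a log2 fold change of -3.46 (adjusted p = 0.0106, limma) that was -2.85 without the library labelled dyW3. Mtrf1 at -2.83, Mtrf1l at 0.58 and the elongation factor gene Gfm1 at 0.86 did not pass. Without dyW1, 3 of the list were lower at 0.05, beside 31.2% of all genes tested. Among them was Mtrf1 at -3.84 (adjusted p = 0.0163, limma). Without the library labelled dyW3 Mtrf1l was at -0.47. Of 19 aminoacyl-tRNA synthetase genes tested, 1 was called lower, again a smaller share than the 18.7% of all genes, and 4 were lower at 0.05, with 0 higher and a median of -1.16. Vars2, which charges the valine tRNA, was called lower at -3.85. It was not called without dyW1, without dyW2 or with the common total, with adjusted p-values of 0.0110, 0.0182 and 0.0301 in limma. Sars2 followed at -3.69 (adjusted p = 0.0337, limma). Without the library labelled dyW3, where Sars2 was highest of the dyW libraries, it had a log2 fold change of -4.99 with an adjusted p of 0.00246 in limma and met the stricter call, while without dyW1 or dyW2 its adjusted p was 0.0861 and 0.0849. Rars2 was the most positive at 2.06 with every dyW library above every WT library, but did not pass (adjusted p = 0.0611, limma). It passed without dyW1 or the library labelled dyW3, with adjusted p-values of 0.0387 and 0.0398 in limma. Without dyW2, which held its highest value, Rars2 was at 1.30 and did not pass (adjusted p = 0.164, limma). Nars2 was at 0.27.

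Of 19 genes of mitochondrial transcription and mRNA handling tested, 1 was lower at 0.05 and 0 higher, with a median of 0.15. Polrmt, the mitochondrial RNA polymerase, stood at 14.4 to 48.0 normalized counts in WT and at 6.63, 5.82 and 3.42 in dyW, and fell by 2.52 on the log2 scale (adjusted p = 0.0273, limma). Supv3l1 at -1.83, Pnpt1 at 1.48 and Ssbp1, the DNA-binding protein of the mitochondrial genome, at 2.54 did not pass. Without dyW1, Ssbp1 was at 3.34 and Supv3l1 at -3.20, and both passed with adjusted p-values of 0.0280 and 0.0164 in limma. Neither passed without dyW2, at 2.12 and -1.13, or without the library labelled dyW3, at 2.18 and -1.16. With the common total, Polrmt was at -1.48, Mtif3 at -2.71 and Sars2 at -2.94 without passing 0.05, with adjusted p-values of 0.262, 0.0736 and 0.129 in limma, while Rars2, Ssbp1 and Pnpt1 passed at 3.19, 3.68 and 2.60, with adjusted p-values of 0.0164, 0.0150 and 0.0353. The medians of the lists moved with the scaling and the libraries. For the assembly list the median was -0.21 with the common total and 0.17 with quantile normalization, for the translation factors -0.17 and -0.049, and for the synthetases -0.21 and 0.29. For transcription and mRNA handling it was 1.25 and 1.148, and -0.17 without dyW2. For all 4 lists the share lower at 0.05, at most 6 of 24, was below the 29.6% of all genes tested. Without dyW1 the synthetases had 6 of 19 lower at 0.05, about the 31.2% of all genes in that fit. The median over the genes of the assembly list was a mean of 26.7 normalized counts, against 57.2 over the members, so the lists differ in level as well.

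The genes of the members are spread over 17 chromosomes, and 14 of the 77 (18.2%) start within 1000 bases of, and head away from, the start of another protein-coding gene on the opposite strand. Of all 21770 protein-coding genes in GENCODE release 39, 5.05% do. The closest pair of members is Mrpl46 and Mrps11, whose starts lie 30 bases apart. Their levels did not follow each other in every library: in dyW1 Mrpl46 was at 0 and Mrps11 at 24.6 normalized counts. Mrps12 shares such a start region with Sars2, at a distance of 129 bases, and in the dyW libraries Mrps12 stood at 24.5, 147 and 54.7 and Sars2 at 0, 1.39 and 22.0. Mrpl43 and Twnk, the mitochondrial helicase, start 56 bases apart.

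Promoter windows of 300 bases, from 250 before to 50 after a start, were read from RefSeq for build GRCm38.p6, and 68 of the 77 members had 74 such windows among 32851 in all. Words known for factors of nuclear genes with mitochondrial products were searched on both strands: GCGCATGCG for NRF1, CCGGAAG for GABPA and other ETS factors, AAGATGGCG for YY1, GGGCGG for SP1 and TCAAGGTCA for ERRA. The ETS word was in 25 member windows (33.8%, against 8.86% of all windows), the YY1 word in 8 (10.8%, against 1.40%) and the NRF1 word in 7 (9.46%, against 1.75%). The SP1 word was in 39 (52.7%, against 35.7%) and the ERRA word in 0, against 0.423% of all. At least 1 of the ETS, YY1 and NRF1 words was in 47.3% of the member windows and in 11.4% of all windows. A match is a description of the letters and says nothing of binding in these fibers.

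The windows of 5 members are printed 5′ to 3′ along the gene's strand, with the words found in capitals, because they belong to the members on which the values above turn: the one that fell, the most abundant, the closest pair and 2 whose groups did not overlap. The window of Mrpl10 (chr11:97041332-97041631, plus strand) holds the NRF1 word, and that of Mrpl42 (chr10:95501900-95502199, minus strand) the SP1 word and then the YY1 word. The window of Mrps11 (chr7:78782881-78783180, plus strand), which overlaps that of Mrpl46, holds the YY1 and the SP1 word. That of Mrps6 (chr16:92058086-92058385, plus strand) holds the SP1 word 4 times, with the first and the second sharing a base, and that of Mrps23 (chr11:88204138-88204437, plus strand) the ETS word.
Mrpl10: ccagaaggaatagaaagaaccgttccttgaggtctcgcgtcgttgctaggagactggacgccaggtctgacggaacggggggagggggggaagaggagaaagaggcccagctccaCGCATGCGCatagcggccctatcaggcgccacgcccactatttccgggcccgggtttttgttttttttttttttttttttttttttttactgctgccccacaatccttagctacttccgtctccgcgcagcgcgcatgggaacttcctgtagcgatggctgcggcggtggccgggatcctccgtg
Mrpl42: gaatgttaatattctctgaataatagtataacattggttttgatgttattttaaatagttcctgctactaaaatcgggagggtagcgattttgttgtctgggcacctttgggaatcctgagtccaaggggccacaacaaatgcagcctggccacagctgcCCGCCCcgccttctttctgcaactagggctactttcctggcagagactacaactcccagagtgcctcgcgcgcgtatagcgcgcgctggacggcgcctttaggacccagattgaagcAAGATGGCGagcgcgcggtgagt
Mrps11: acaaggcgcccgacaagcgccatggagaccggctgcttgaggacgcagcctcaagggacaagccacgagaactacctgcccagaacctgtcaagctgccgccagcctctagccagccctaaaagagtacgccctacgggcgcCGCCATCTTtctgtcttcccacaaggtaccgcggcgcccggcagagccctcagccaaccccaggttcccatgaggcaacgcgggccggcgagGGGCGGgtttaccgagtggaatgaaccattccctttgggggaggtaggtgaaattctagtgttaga
Mrps6: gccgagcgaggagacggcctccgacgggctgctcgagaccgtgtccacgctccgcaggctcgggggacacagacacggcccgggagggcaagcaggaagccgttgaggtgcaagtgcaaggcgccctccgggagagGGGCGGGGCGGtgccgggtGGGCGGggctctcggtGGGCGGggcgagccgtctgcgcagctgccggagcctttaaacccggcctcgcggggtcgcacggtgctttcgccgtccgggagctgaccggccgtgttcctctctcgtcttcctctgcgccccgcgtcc
Mrps23: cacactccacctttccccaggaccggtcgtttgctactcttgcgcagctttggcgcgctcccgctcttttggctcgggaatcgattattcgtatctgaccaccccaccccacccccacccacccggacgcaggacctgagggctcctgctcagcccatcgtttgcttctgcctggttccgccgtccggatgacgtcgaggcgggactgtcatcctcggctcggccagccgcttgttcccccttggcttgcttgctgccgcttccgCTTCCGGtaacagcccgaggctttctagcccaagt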

How the data were processed

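RNA from muscle fibers of 7 fetuses was measured with SMART-seq2 and Nextera XT libraries, 1 library per fetus. After adapter trimming (Cutadapt) and alignment (STAR, build GRCm39), reads were counted per gene by FeatureCounts. The authors deposited normalized counts: the count of a gene over a size factor of its library (DESeq2). Tool versions, annotation release and strand setting are not given in the sources used here. The deposited table of the authors' own comparison was not used. All positive values in each library were whole multiples of 1 step within 0.05 of a read (100%), which gave the reads.

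Genes with a mean of at least 5 normalized counts were compared on log2(normalized count + 1), which understates changes of low genes, by a linear model with moderated variances (limma 3.58.1, trend on; R 4.3.3) and Benjamini-Hochberg adjustment, after a check on simulated data. P-values measure the spread between libraries, 1 per fetus. Differences between fetuses cannot be told apart there from those of depth, amplification or tissue content. Coordinates, canonical transcripts and exon overlaps came from GENCODE mouse release 39. Python 3.11.15, numpy 2.4.6, pandas 2.3.3 and matplotlib 3.10.9 were used. Members and lists were chosen with earlier results of these data known. Named members are those past an adjusted p of 0.05, the 5 lowest and 5 highest fold changes, the 5 highest and 5 lowest per kb, the Mrps18 paralogs and those with non-overlapping groups. For each list the 2 most negative and 2 most positive were considered. Of the symbols sought, Mrpl53, Rpusd3, Mtrfr, Slirp and Prorp were not analysed here. Alternatives were pseudocounts of 0.1 and 10, other filters and scalings, a replicate block, and each library left out.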

Additional observations from a re-analysis of the deposited data

Results flagged for a closer look

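Of 28 values looked at over the 4 WT libraries (24 named members and 4 totals), 5 held 1 library far from the other 3, and chance flags about 1 in 20 groups. The dyW group, with 3 libraries, was not examined this way. The members' summed normalized counts were 7214 in WT3 against 3204 to 3527 in the other WT libraries, a gap of 0.919 of the range. Mrpl42 was at 761 in WT3 against 126 to 151 (0.960 of the range), and Mrpl28 at 330 in WT3 against 75.5 to 90.6 (0.941 of the range). WT1, the library with the fewest reads, lay apart for the number of members with a read, 70 against 76 or 77 (0.857 of the range), and for Mrps35, at 5.33 normalized counts or 1 read against 50.3 to 55.4 (0.899 of the range).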

How the results depend on the processing

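Across all alternatives run, 0 members were called lower, though in several of them hardly any gene was called lower at all. The 1 called higher, Mrps6, came with voom on the recovered reads and library totals as the scale. The count lower at an adjusted p under 0.05 was 0 with a mean of at least 50 normalized counts (Mrpl10 was then not tested), with each library set to 1 common total, with quantile normalization, with the receptor level (odorant and vomeronasal receptor genes per kb) subtracted and with either voom fit. It was 0 to 3 when 1 library was left out, beside 22.1% to 41.4% of all genes. The count higher was 1, Mrps6, with a pseudocount of 10 and with voom on library totals, beside 0.713% and 1.86% of all genes. It was 7 with the common total (4.804% of all genes were higher there): Mrpl21, Mrpl30, Mrpl39, Mrpl52, Mrps2, Mrps23 and Mrps6. When 1 library was left out it was 0 to 2, beside 0.321% to 1.47% of all genes. The median of the members was 1.47 with the common total, 1.39 with voom on library totals, and from -0.33 to 1.17 when 1 library was left out. The all-gene median was -1.19 with the common total, 0.06 with quantile normalization and -0.30 with the receptor level subtracted, and the members' median lay above it by 2.66, 0.81 and 1.32 in these, against 2.34 as reported. Members with a read, WT minus dyW, moved from -0.33 to 5.5 at a bar of 10 normalized counts. Over all genes, 7625 were lower at 0.05 as reported, against 3 with a mean of at least 50, 82 with quantile normalization, 0 with the receptor level subtracted, 2 with the replicate block and 5149 with a pseudocount of 10. The count higher was 261 as reported and 1239 with the common total. Called lower were 4830 as reported, and 5325 and 6079 with voom on library totals and on the deposited scaling. The count was 2 with quantile normalization and 1 with the replicate block. It was 0 with the common total, a pseudocount of 10, a mean of at least 50 or the receptor level subtracted, or without WT2, WT4 or dyW2. The cause of these shifts was not tested.

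Replicate numbers did not pair the samples: the correlation of deviations from the group means was 0.15, -0.05 and -0.09 for the 3 same-numbered pairs, and only dyW1 correlated best with its own number. With the replicate block, to which WT4 adds nothing, 0 members were lower at 0.05, the log2 fold change of Mrpl10 was -2.73 (adjusted p = 0.132, limma), the members' median was 0.21, and Mrpl20 was at -0.040. The fits with edgeR and DESeq2 were not run, since voom on the recovered reads, added after seeing the data, took their place. Of the 23 members named and tested, 11 changed sign under some alternative, none of them past an adjusted p of 0.05 as reported. With quantile normalization the log2 fold change was -0.073 for Mrpl13, -0.38 for Mrpl20, -0.022 for Mrpl28, 0.29 for Mrpl46 and 0.77 for Mrps30. With the common total it was 0.42 for Mrpl33 and 0.19 for Mrps35, and with the receptor level subtracted 0.86 for Mrps30 and 0.27 for Mrps35. With voom on library totals it was 0.41 for Mrpl33, 0.92 for Mrps18a, -0.10 for Mrps18b and 0.22 for Mrps35, with voom on the deposited scaling -0.17 for Mrpl20, -0.012 for Mrpl28 and -1.13 for Mrps18b, and with a pseudocount of 0.1 -0.071 for Mrps18b. Leaving out 1 library gave -0.46 to 1.30 for Mrpl13, -0.35 to 0.79 for Mrpl20, -0.62 to 1.35 for Mrpl28, -2.24 to 0.91 for Mrpl33, -0.68 to 2.16 for Mrpl42, -2.81 to 1.01 for Mrps18a, -0.90 to 1.39 for Mrps18b and -0.51 to 0.50 for Mrps5. The WT values rest on a median of 67 reads a member over 4 libraries, and the spread between libraries was the larger in dyW for 61 of 76 members.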
